A study of Rattus norvegicus with 27 samples.

Results

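The calcium cycling genes of the cardiomyocyte described here are Atp2a2, Ryr2, Pln, Casq2, Jph2 and Slc8a1, chosen by name. Every array probe annotated to 1 of these 6 symbols was taken, and 4 of the 6 genes had a probe, 1 each, out of 12978 genes with a probe in all. No probe of the table used here was annotated to Ryr2 or Pln, by symbol or by gene identifier, so these genes were not analysed. The probes belong to a study of Fisher 344 rats, all male and 4 weeks old at the start, whose hearts were taken after 3 months of inhalation. The groups inhaled coarse particles (6 arrays), fine particles (6 arrays), ultrafine particles (8 arrays) or filtered air (7 arrays). Each array was taken as 1 rat, and p-values measure the spread between these arrays. Total RNA from the heart was hybridised to Illumina bead arrays with 22226 probes. The labels name the tissue only as heart, without a chamber, and the sources used here give no particle concentrations.

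Each heartbeat is driven by a cycle of calcium between the cytosol and the sarcoplasmic reticulum of the cardiomyocyte. Calcium that enters through L-type channels opens the ryanodine receptor Ryr2, which releases the store held in the reticulum by calsequestrin, the product of Casq2, while junctophilin, the product of Jph2, holds the reticulum close to the cell membrane. The muscle relaxes when the pump SERCA2a, the product of Atp2a2, returns calcium to the store under the brake of phospholamban, the product of Pln, and when the sodium-calcium exchanger, the product of Slc8a1, moves calcium out of the cell. Lower SERCA2a and higher exchanger levels are commonly described in the failing heart.

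Levels are the deposited values, which were taken as log2 and ran from 5.12 to 14.17 with a median of 5.82. A step of 1 is a doubling on that scale if low values were not compressed, which the sources used here do not settle, so folds of dim probes are on the scale of the table. Probes do not bind alike, so levels were compared between arrays and not between genes. Differences between groups were tested with limma, a linear model with a shared estimate of spread, over the 11657 brightest probes. A probe was called at a Benjamini-Hochberg adjusted p under 0.05 over all of them. All 4 gene probes were among the 11657.

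The heart tissue was checked against 16 measured sarcomere and cardiomyocyte genes. Their mean level lay between 11.76 and 12.56 with coarse particles, 12.55 and 12.69 with fine particles, 11.81 and 12.68 with ultrafine particles and 12.46 and 12.67 with filtered air, so muscle transcripts were bright on all 27 arrays. The mean of 5 measured atrial genes ran from 8.06 on ultrafine 2 to 10.20 on ultrafine 4. It was 8.27 on ultrafine 7, 8.93 on filtered air 4 and 8.96 on coarse 1. Its part in the levels described here was not tested. The arrays differed in other cell types. Over 16 thymocyte and lymphocyte genes, the mean level on 6 arrays, namely coarse 1 and 2, fine 2, ultrafine 2 and 7 and filtered air 1, lay 13.7 to 32.7 median absolute deviations above the median of the arrays. The highest of the other 21 lay 5.87 above. An array was set apart where this list lay over 3 deviations above the median or where it correlated with the other arrays at a median below 0.949. The rule took out those 6, coarse 5, fine 4 and filtered air 2 by the list, and ultrafine 8 by its correlation of 0.913, and left 17 arrays, 3 of coarse, 4 of fine, 5 of ultrafine and 5 of filtered air. A limit of 10 deviations, chosen after the gap in the values was seen, left 20 arrays. In heart tissue as a whole, fewer cells of a type and less RNA per cell cannot be told apart.

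None of the 4 measured genes was called in any comparison. Against filtered air, 0 of 4 probes were called with coarse particles, where 0.00858% of the 11657 probes were called, 0 of 4 with fine particles, where 0% were called, and 0 of 4 with ultrafine particles, where 0.0686% were called. Between particle sizes, 0 of 4 were called for coarse against fine, coarse against ultrafine and fine against ultrafine particles, where 0.0257%, 0% and 0.197% of the probes were called in that order. The test of any difference among the 4 groups called 0 of 4 genes against 0.0944% of all probes. At an unadjusted p under 0.05 the share of all probes was 4.07% with coarse, 5.98% with fine and 5.28% with ultrafine particles against filtered air. One member probe, that of Jph2 with ultrafine particles, was below that limit, where limma gave it an adjusted p of 0.883. Calls this rare over the whole table mean that a count of 0 of 4 does not set these genes apart from the other probes.

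Release was measured through Casq2 and Jph2. Casq2 (chromosome 2, 192214556 to 192270821 on the plus strand of GRCr8) encodes the cardiac calsequestrin, the protein that buffers calcium in the reticulum beside the release channel, and it was the gene of the 4 with the widest range. Its level over the 27 arrays was 8.10 ± 0.45 (SD), from 6.86 to 8.64. The 300 bases from 250 before its start site to the base 50 of the gene, chr2:192214306-192214605 on the plus strand, are shown because its probe spanned the widest range of the 4, with the limit that Atp2a2 sat at the top of the scale and Slc8a1 near the bottom, as given below. The sequence is that of RefSeq on GRCr8, and the capitals mark matches to the motifs searched.
Casq2: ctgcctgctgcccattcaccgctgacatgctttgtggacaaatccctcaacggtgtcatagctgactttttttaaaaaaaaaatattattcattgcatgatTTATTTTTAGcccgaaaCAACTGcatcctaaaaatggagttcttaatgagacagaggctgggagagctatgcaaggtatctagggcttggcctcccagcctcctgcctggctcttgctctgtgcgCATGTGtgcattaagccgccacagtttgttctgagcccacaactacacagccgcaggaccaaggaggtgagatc
The motifs searched on both strands were the GC box GGGCGG, the E-box CANNTG, the TATA box TATAAA, the GATA motif GATAA, the CArG box and the MEF2 site. The Casq2 window held 2 E-boxes, starting at -132 and -24 from the start site, and 1 match to the MEF2 site, TTATTTTTAG, starting at -149. An E-box was found in 72.1% and a MEF2 site in 3.287% of 33469 RefSeq promoter windows of this length. A match is a description of the letters only.

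Casq2 levels had a lowest, median and highest value of 6.86, 8.21 and 8.40 on the 6 coarse arrays, 8.05, 8.18 and 8.49 on the 6 fine arrays, 7.10, 8.43 and 8.64 on the 8 ultrafine arrays and 7.61, 8.21 and 8.35 on the 7 filtered air arrays. The groups overlapped, and the ultrafine group held both the highest array and several of the lowest. The mean was 8.04 ± 0.59 (SD, n = 6) with coarse particles, 8.20 ± 0.16 (SD, n = 6) with fine particles and 8.05 ± 0.65 (SD, n = 8) with ultrafine particles, against 8.12 ± 0.26 (SD, n = 7) with filtered air. The log2 difference from filtered air was -0.09 with coarse particles (95% interval -0.61 to 0.44, limma adjusted p = 0.989). It was 0.08 with fine particles (95% interval -0.44 to 0.60, limma adjusted p = 0.999). It was -0.07 with ultrafine particles (95% interval -0.56 to 0.41, limma adjusted p = 0.955). The intervals leave room for differences several times larger than those seen.

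**Figure D1:**
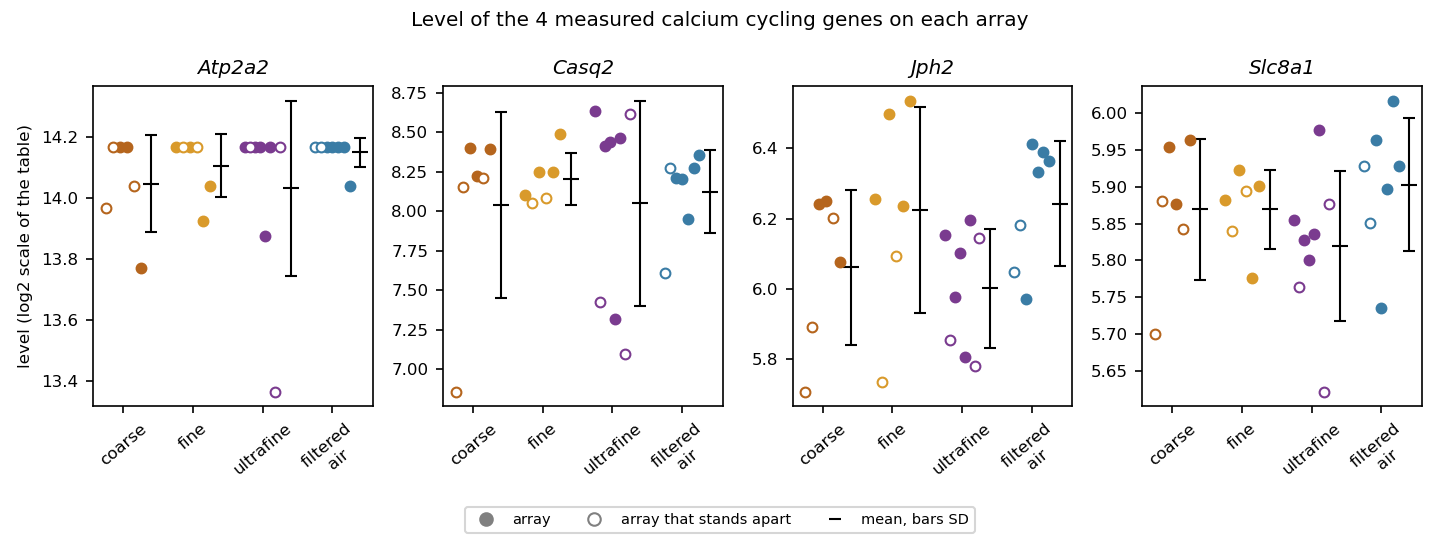
Level of Atp2a2, Casq2, Jph2 and Slc8a1 on each array (vertical axis, log2 scale of the table, a different range in each panel) by exposure, with 1 point per array, open points for the 10 arrays set apart, and the group mean with its SD beside them. Atp2a2 points pile up at the highest value of the table, 14.17, and the 4 exposure groups overlap in every panel.

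Casq2 fell into 2 ranges over the arrays. The 5 lowest arrays were coarse 1 at 6.86, ultrafine 7 at 7.10, ultrafine 5 at 7.32, ultrafine 2 at 7.43 and filtered air 1 at 7.61. The other 22 lay between 7.95 and 8.64. Of the 5 lowest, 4 were among the 6 arrays over 10 deviations in thymocyte and lymphocyte genes, and the mean level of that list was 9.81 on coarse 1, 9.81 on ultrafine 7, 9.40 on ultrafine 2 and 8.72 on filtered air 1. The sarcomere mean was 11.76 on coarse 1 and 11.81 on ultrafine 7, below all other arrays, but 12.46 on filtered air 1, near the rest. Ultrafine 2 had a sarcomere mean of 12.23, and ultrafine 8 had 11.86 with a Casq2 level of 8.61, the second highest of the 27 arrays. The sarcomere genes were uneven on ultrafine 8. Mybpc3 at 7.99 and Myl3 at 10.68 were each at their lowest of the 27 arrays. So were Myh6 at 12.25, Tnnt2 at 12.67, Csrp3 at 10.50 and Tnni3 at 13.14. Mb at 13.82 and Actc1 at 7.43 were among their highest, so ultrafine 8 was not low in all muscle transcripts. Across the 17 arrays, Casq2 had a Pearson correlation of 0.05 with the sarcomere mean (permutation p = 0.85). With the thymocyte and lymphocyte mean it was -0.39 (permutation p = 0.125). Over all 27 arrays these correlations were 0.57 and -0.79. Beyond these and the covariate fits given below, the part of either list in the Casq2 level was not tested. Ultrafine 5 was different: its thymocyte mean was 6.31 and its sarcomere mean 12.54, both within the range of the other arrays. It had the highest list means of the 27 arrays for endothelial genes, 7.90 against a median of 7.51, and for red cell genes, 10.58 against a median of 10.02. It was second highest for macrophage genes, 7.82 against a median of 7.42, and for the 5 measured skeletal muscle genes, 7.05 against a median of 6.04. Coarse 6, with the highest skeletal muscle mean of 9.09, had Casq2 at 8.39. The part of these lists was not tested.

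**Figure D2:**
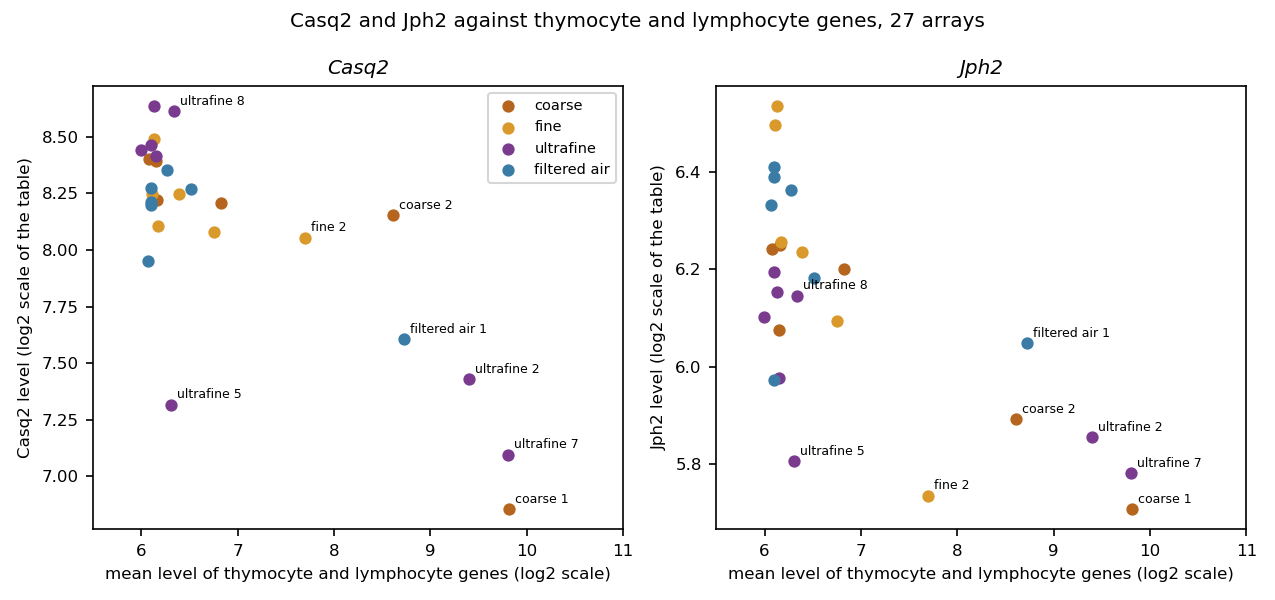
Levels of Casq2 and Jph2 (vertical axes) against the mean level of 16 thymocyte and lymphocyte genes (horizontal axes, log2 scale of the table), 1 point per array, coloured by exposure. Coarse 1 and ultrafine 7, at the right, have low levels of both genes, and ultrafine 5 has low levels at a thymocyte mean of 6.31.

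Leaving arrays out turned the sign of the Casq2 difference with coarse and with ultrafine particles. In the 17 arrays the log2 difference from filtered air was 0.14 with coarse particles, 0.07 with fine particles and 0.06 with ultrafine particles, with limma adjusted p of 0.979, 0.957 and 0.972 in that order. In the 20 arrays these were 0.10, 0.02 and 0.04. A fit without ultrafine 5 as well, chosen after its values were seen, gave 0.29 for ultrafine particles minus filtered air with a limma adjusted p of 0.214. Ultrafine 5 had the lowest Casq2 level of the 17 arrays, 7.32, so leaving it out could only raise the ultrafine mean. No setting brought Casq2 past the threshold.

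Jph2 (chromosome 3, 172414246 to 172478678 on the minus strand of GRCr8) encodes the junctophilin of heart muscle, which ties the transverse tubules to the reticulum. Its level was 6.13 ± 0.23 (SD) over the 27 arrays, from 5.71 to 6.54, toward the dim end of the table. The lowest, median and highest level was 5.71, 6.14 and 6.25 with coarse particles, 5.73, 6.25 and 6.54 with fine particles, 5.78, 6.04 and 6.19 with ultrafine particles and 5.97, 6.33 and 6.41 with filtered air. All 8 ultrafine arrays lay below the filtered air mean, but the groups overlapped, because filtered air 1, 2 and 3 stood at 6.05, 6.18 and 5.97. The mean was 6.00 ± 0.17 (SD, n = 8) with ultrafine particles against 6.24 ± 0.18 (SD, n = 7) with filtered air. The log2 difference was -0.24 (standard error 0.11, 95% interval -0.46 to -0.02), which is 0.846 of the filtered air level. A two-sided exact permutation test over all 6435 assignments of these arrays gave p = 0.0211, before any adjustment, and the limma adjusted p over all probes was 0.883.

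With coarse particles Jph2 averaged 6.06 ± 0.22 (SD, n = 6), a log2 difference of -0.18 from filtered air (95% interval -0.42 to 0.06, limma adjusted p = 0.985), and 5 of 6 arrays lay below the filtered air mean. With fine particles it averaged 6.23 ± 0.29 (SD, n = 6), a difference of -0.02 (95% interval -0.26 to 0.22, limma adjusted p = 0.999). The fine mean was close to the filtered air mean. The log2 difference of fine minus ultrafine particles was 0.22 with a 95% interval from -0.01 to 0.46, a limma adjusted p of 0.437 and a two-sided exact permutation p of 0.0992. At an unadjusted p under 0.05, 12.1% of all probes differed between fine and ultrafine particles, and Jph2 was not among them.

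The 6 lowest Jph2 arrays were coarse 1 at 5.71, fine 2 at 5.73, ultrafine 7 at 5.78, ultrafine 5 at 5.81, ultrafine 2 at 5.86 and coarse 2 at 5.89. Of these, 5 were among the 6 arrays over 10 deviations in thymocyte and lymphocyte genes, and the sixth was again ultrafine 5. The Pearson correlation of Jph2 with the mean of these genes was -0.19 across the 17 arrays (permutation p = 0.454) and -0.69 over all 27. Beyond this and the covariate fits, the part of these genes in the Jph2 level was not tested. The difference of ultrafine particles from filtered air was -0.25 in the 17 arrays with a limma adjusted p of 0.525, and -0.23 in the 20 arrays with 0.437. Without ultrafine 5 as well as the 10 arrays it was -0.19 with a limma adjusted p of 0.605. The difference of fine minus ultrafine particles was 0.33 in the 17 arrays (standard error 0.10, 95% interval 0.12 to 0.55, limma adjusted p = 0.173) and 0.28 in the 20 arrays (limma adjusted p = 0.200).

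**Figure D3:**
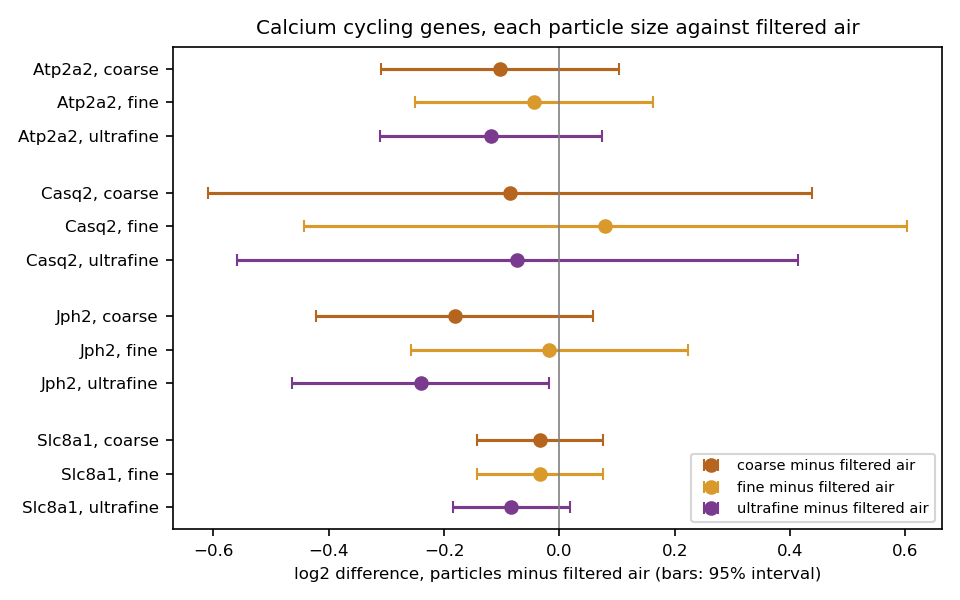
Log2 difference of each particle size minus filtered air (horizontal axis) for the 4 measured genes, with bars for the 95% interval of the limma fit over all 27 arrays. The intervals include 0 except that of Jph2 with ultrafine particles, from -0.46 to -0.02, which is not adjusted for the number of probes.

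Uptake was measured through Atp2a2 (chromosome 12, 39733519 to 39782942 on the plus strand of GRCr8), the gene of the calcium pump of the reticulum. Its probe had the highest mean of all 22226, 14.08. Its 300 base promoter window, chr12:39733269-39733568 on the plus strand, is shown because its probe was the brightest on the arrays. The sequence and the marks are of the same kind as for Casq2.
Atp2a2: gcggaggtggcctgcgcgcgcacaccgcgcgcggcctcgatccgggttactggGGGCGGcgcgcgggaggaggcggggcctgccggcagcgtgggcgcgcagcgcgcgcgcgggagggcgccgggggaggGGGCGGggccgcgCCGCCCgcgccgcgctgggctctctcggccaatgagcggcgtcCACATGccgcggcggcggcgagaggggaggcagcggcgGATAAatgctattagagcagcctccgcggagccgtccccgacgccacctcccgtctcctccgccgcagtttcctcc
The window held 79% G and C, more than 98.8% of the 33469 windows, whose median was 51.67%. It had 3 GC boxes, starting at -197, -120 and -107, an E-box at -64 and a GATA motif at -26. A GC box was found in 33.06% of all windows and the GATA motif in 26.54%. The Casq2 window shown above, with 47.67% G and C, held neither. No TATA box or CArG box was matched in either window, and over all windows 14.22% held a TATA box and 1.637% a CArG box.

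Atp2a2 was the brightest probe, at 14.17, on 19 of the 27 arrays: 3 of 6 with coarse particles, 4 of 6 with fine particles, 6 of 8 with ultrafine particles and 6 of 7 with filtered air. Arrays were given the same set of sorted values by the authors' normalization, so a level above 14.17 could not be seen, and only lower levels separate the arrays. The lowest, median and highest level was 13.77, 14.10 and 14.17 with coarse particles, 13.92, 14.17 and 14.17 with fine particles, 13.36, 14.17 and 14.17 with ultrafine particles and 14.04, 14.17 and 14.17 with filtered air. The 8 arrays below the top were coarse 1 at 13.97, coarse 5 at 14.04, coarse 6 at 13.77, fine 5 at 13.92, fine 6 at 14.04, ultrafine 5 at 13.88, ultrafine 7 at 13.36 and filtered air 7 at 14.04. Coarse 6 also had the highest mean of the 5 skeletal muscle genes, 9.09, whose part was not tested. The difference from filtered air was -0.10 with coarse, -0.04 with fine and -0.12 with ultrafine particles, with limma adjusted p of 0.985, 0.999 and 0.885 in that order. Given the ceiling, these differences say nothing of any increase in Atp2a2 transcripts. The probe is annotated to a RefSeq record of the non-coding transcript class, unlike the probes of Casq2, Jph2 and Slc8a1. Which transcripts of Atp2a2 the probe reads, that of SERCA2a among them, was not examined.

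Extrusion was measured through Slc8a1 (chromosome 6, 18975498 to 19299704 on the plus strand of GRCr8), the gene of the sodium-calcium exchanger. Its mean of 5.86 ± 0.09 (SD) over the arrays was close to the lowest mean of the 11657 probes, 5.79, and its levels ran from 5.62 to 6.02. The lowest, median and highest level was 5.70, 5.88 and 5.96 with coarse particles, 5.78, 5.89 and 5.92 with fine particles, 5.62, 5.83 and 5.98 with ultrafine particles and 5.73, 5.93 and 6.02 with filtered air. The groups overlapped over nearly all of their range. The log2 difference from filtered air was -0.03 with coarse, -0.03 with fine and -0.08 with ultrafine particles, and the limma adjusted p with ultrafine particles was 0.883. A probe this dim can show little of a change in either direction.

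Counted together, 4 of 4 probes lay below filtered air with coarse particles, 3 of 4 with fine particles and 4 of 4 with ultrafine particles. Over all probes these shares were 51.6%, 49.2% and 48.3%. Without coarse 1 alone, 2 of 4 lay below with coarse particles. In the 17 arrays, and also in the 20, the counts were 2 of 4 with coarse, 2 of 4 with fine and 3 of 4 with ultrafine particles. The median log2 difference of the 4 was -0.09, -0.03 and -0.10 in the same order, against -0.00, 0.00 and 0.00 over all 11657 probes. Of the 16 sarcomere and cardiomyocyte genes, 13, 8 and 15 lay below filtered air in the same order, with medians of -0.17, -0.00 and -0.16, and 0 of them were called. Across the 17 arrays the Pearson correlations with their mean were 0.24 for Atp2a2, 0.05 for Casq2, -0.02 for Jph2 and -0.44 for Slc8a1. The permutation p were 0.364, 0.85, 0.942 and 0.0765 in that order. Over all 27 arrays the correlations were 0.49, 0.57, 0.45 and 0.50. Beyond these and the covariate fits given below, their part in the level of the 4 genes was not tested.

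Across the 17 arrays not set apart, no correlation between 2 of the 4 genes passed its test. Casq2 and Jph2 had a Pearson correlation of 0.36 (permutation p = 0.156) and a Spearman correlation of -0.04 (permutation p = 0.875), and the Pearson value was -0.15 without ultrafine 5 and ultrafine 1, so it rested on those arrays. Atp2a2 and Casq2 had 0.31 (permutation p = 0.196) with a Spearman correlation of 0.02 (permutation p = 0.931), and -0.07 without coarse 6 and ultrafine 5. The lowest p of the 14 relations was that of Atp2a2 with the thymocyte and lymphocyte mean. It had a Pearson correlation of -0.63 (permutation p = 0.0109, adjusted 0.153), a Spearman correlation of -0.65 (permutation p = 0.00514, adjusted 0.0720), and did not pass the adjustment. Atp2a2 was at the ceiling on 12 of these 17 arrays, so the correlation rests on the other 5. Without coarse 6 and ultrafine 5 it was -0.82, resting on 3 arrays below the ceiling. Over the 20 arrays it was -0.20, and over all 27 arrays -0.39.

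The mean of the 4 was taken without scaling. Over the 17 arrays the SD was 0.29 for Casq2, 0.20 for Jph2, 0.13 for Atp2a2 and 0.08 for Slc8a1. Casq2 thus weighed most in the mean, which is no shared pattern of the 4 genes. By Pearson correlation across the 17 arrays, the genes most like it were Mrps12 at 0.94, Trit1 at 0.91, Bckdhb at 0.90, Nelfb at 0.90 and Nsun4 at 0.89. Their Spearman correlations were 0.80, 0.65, 0.66, 0.62 and 0.47. Over all 27 arrays their Pearson correlations were 0.50, 0.47, 0.94, 0.84 and 0.67, so Mrps12 and Trit1 were less alike there. Mrps12 is a protein of the mitochondrial ribosome, Nsun4 methylates the RNA of that ribosome, and Bckdhb is a subunit of the mitochondrial complex that breaks down branched-chain amino acids. The lowest were Coro1a, an actin regulator of leukocytes and a member of the thymocyte and lymphocyte list, at -0.92, Ube2c at -0.88 and Npy at -0.87. Over all 27 arrays these were -0.88, -0.88 and -0.12. For single genes, the closest were Magi3 and Inpp4a to Atp2a2 (0.80 and 0.78), Mtfr1l and Coq5 to Casq2 (0.91 each), Phf14 and Phospho2 to Jph2 (0.87 and 0.86), and Pcdh9 and Ccdc34 to Slc8a1 (0.75 and 0.74). Over all 27 arrays the same pairs had 0.73 and 0.70 for Atp2a2, 0.94 and 0.93 for Casq2, 0.27 and 0.61 for Jph2, and 0.24 and -0.15 for Slc8a1. Spearman correlations of these pairs over the 17 arrays were 0.59 and 0.77 for Atp2a2 and 0.69 and 0.62 for Casq2. For Jph2 they were 0.85 and 0.83, and for Slc8a1 0.73 and 0.81. Ultrafine 5 was kept among the 17 arrays, and its part in these correlations was not tested. All of them are the extremes of a large number of probes over 17 arrays and are given as descriptions.

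A list of 92 other calcium handling genes was set beside the 4. A probe was annotated to 57 of them, and 52 genes with 53 probes were among the 11657. None of the 53 probes was called over all 27 arrays in any of the 6 comparisons. At an unadjusted p under 0.05, 2 were higher and 2 lower with coarse particles than with filtered air, 1 was higher and 0 lower with fine particles, and 3 were higher and 2 lower with ultrafine particles. These are 7.55%, 1.89% and 9.43% of the 53 probes, against the 4.07%, 5.98% and 5.28% given above for all probes. With coarse particles 37 of 53 lay below filtered air, with fine particles 27 and with ultrafine particles 26. These are 69.8%, 50.9% and 49.1%, against 51.6%, 49.2% and 48.3% over all probes. The median difference of the 53 was -0.030, -0.007 and 0.009 in the same order. In the 17 arrays it was 0.008, -0.008 and 0.028, and in the 20 arrays 0.006, -0.014 and 0.022, so the coarse median turned its sign.

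Grouped by role, medians were taken over all 27 arrays, those set apart among them. The 5 probes of the L-type channel and its regulators had a median difference from filtered air of -0.04 with coarse particles. It was 0.10 with fine and -0.02 with ultrafine particles. The 6 probes of the release unit, which holds the partners of the ryanodine receptor, had medians of -0.07, -0.12 and -0.05 in the same order, and 5, 4 and 6 of 6 lay below filtered air. The 8 probes of uptake and its regulators had medians of 0.05, 0.02 and 0.08, of which 3, 3 and 1 lay below. The 3 probes of extrusion and sodium transport had the medians farthest from 0 of any role, -0.32, -0.16 and -0.27, with none below an unadjusted p of 0.05, and 3, 2 and 2 lay below. Kinases and receptors, with 12 probes, had medians of -0.01, 0.01 and -0.03. The 11 probes of the IP3 receptors, store-operated entry and mitochondrial transport had medians of -0.03, -0.08 and 0.03. With ultrafine particles 3 of them had an unadjusted p under 0.05, and 1 of these was Stim1 at 0.43. Stim1 stood at 8.97, 9.59 and 9.29 on ultrafine 2, 7 and 8, which were set apart. On the other ultrafine arrays it lay between 8.10 and 8.40. The 8 probes of transcription downstream had medians of 0.00, -0.01 and 0.05, and 4, 4 and 1 of 8 lay below filtered air.

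With coarse particles the smallest p of the list was that of Cacnb2, the beta subunit of the L-type channel. It averaged 6.84 ± 0.12 (SD, n = 6) with coarse particles and 6.60 ± 0.14 (SD, n = 7) with filtered air, a log2 difference of 0.23 with a limma adjusted p of 0.856, and 6 of 6 coarse arrays lay above the filtered air mean. Ppp3ca, a catalytic subunit of the phosphatase calcineurin, differed by -0.36 (limma adjusted p = 0.981), and Adcy5, an adenylyl cyclase of the beta-adrenergic pathway, by -0.26 (limma adjusted p = 0.985). With fine particles the smallest p were those of Orai1, the pore of store-operated calcium entry, at 0.39 (limma adjusted p = 0.824), Camk2a, a calmodulin-dependent kinase, at 0.10 (0.858), and Slc8b1, the mitochondrial sodium-calcium exchanger, at -0.18 (0.872). Each of these 6 genes lay on 1 side of the filtered air mean in at least 5 of 6 arrays, and none passed the test. Such counts follow in part from picking genes by the smallest p and add no support.

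With ultrafine particles the smallest p were those of Letm1, an ion exchanger of the inner mitochondrial membrane, at -0.20 (limma adjusted p = 0.677), Itpr3, an IP3 receptor, at 0.12 (0.780), and Adcy5 at -0.26 (0.780). Adcy5 averaged 6.56 ± 0.19 (SD, n = 8) with ultrafine particles and 6.82 ± 0.14 (SD, n = 7) with filtered air. For Adcy5, 8 of 8 ultrafine arrays lay below the filtered air mean, a count that also follows in part from its choice by p. Letm1 also had the difference between sizes that came nearest to a call. It averaged 9.20 ± 0.11 (SD, n = 6) with fine particles and 8.89 ± 0.17 (SD, n = 8) with ultrafine particles, a log2 difference of 0.31 (standard error 0.07, limma adjusted p = 0.0657). In the 17 arrays it was not called, at a difference of 0.39 with a limma adjusted p of 0.0565. In the 20 arrays, a choice made after the values were seen, it was called at a difference of 0.37 with a limma adjusted p of 0.0215. In the fit of the 20 arrays 1.11% of all probes were called, and 0 of the 4 calcium cycling genes.

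**Figure D4:**
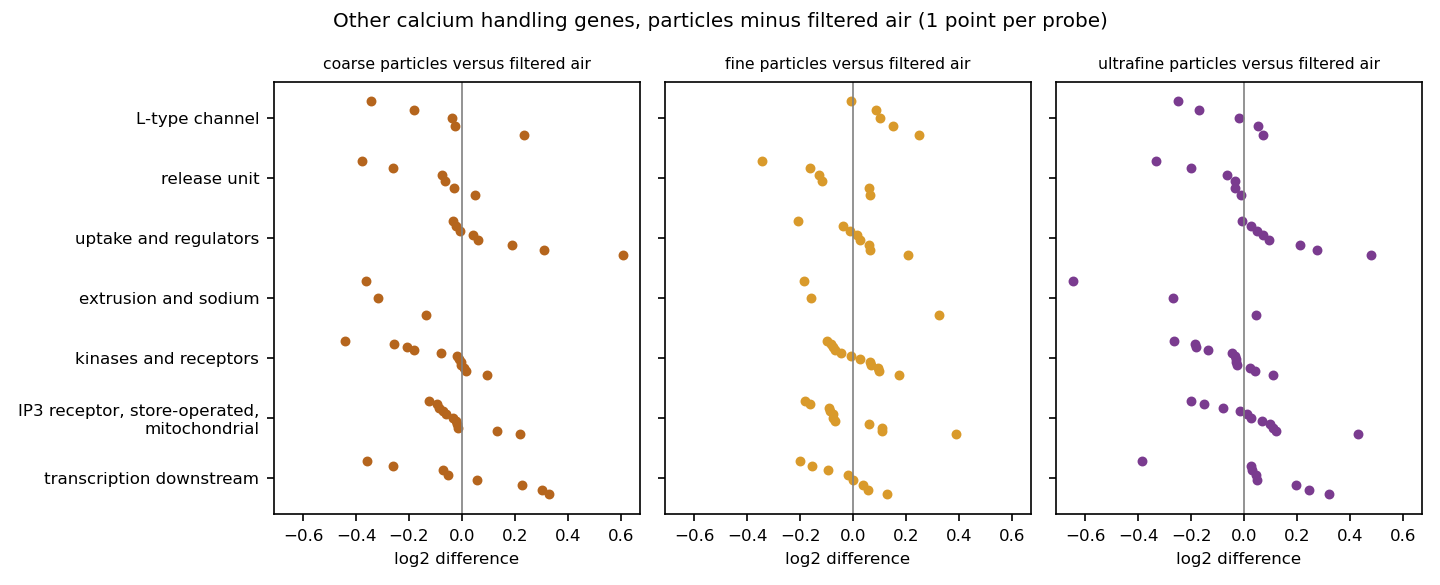
Log2 difference of each particle size minus filtered air (horizontal axis) for the 53 probes of other calcium handling genes, 1 point per probe, arranged by role. The points lie on both sides of 0 in most roles, and none passed the test over all probes.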

How the data were processed

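The authors hybridised 32 arrays and dropped 5 of them, per the labels, and the other 27 are analysed here. The deposited values were made with lumi 1.5.17, per the submitters' processing notes, and were read as log2 from their range. The exact transform is not given in the sources used here. The sorted values of the arrays are nearly identical, the mark of quantile normalization. All columns of values matched a sample. Detection p-values were not used here, and precision is limited by how many arrays there are.

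Of the 22226 probes, 13192 carried 1 gene symbol and 9034 none. Symbols were updated by gene identifier against RefSeq GRCr8 (13151 matched, 41 did not), whose coordinates and promoter sequences are printed. The 11657 probes with the highest mean were kept, the number that the labels give for the authors' detected probes. The 4 groups were fitted together, with no covariate, by the lmFit and eBayes functions in limma (3.58.1, R 4.3.3), and each comparison had its own Benjamini-Hochberg adjustment. Permutation tests were two-sided and exact between groups, and used 100000 resamples for correlations. The fit was tested on simulated data.

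The members and all gene lists were chosen with earlier results of these data known. The named genes are the members, the 3 other calcium handling genes with the smallest p against filtered air for each particle size, the 5 genes most and 3 least like the mean of the members, and the 2 most like each member. Letm1 between fine and ultrafine particles, Stim1 and the single sarcomere genes were named after their values were seen. The alternatives were no filter on dim probes, a stricter filter, cyclic loess, array weights, a mean-variance trend, fits of the compared groups alone, list means as covariates, the replicate number as a block, and leaving out arrays. The replicate numbers were not taken as pairs in the main fit, though same-numbered arrays were more alike at the median, as given below.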

Additional observations from a re-analysis of the deposited data

Results flagged for a closer look

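Within groups, 3 values lay far from the other arrays by the size of their gap to the nearest one, a criterion that chance meets in about 1 in 20 groups. Atp2a2 stood at 13.36 on ultrafine 7, where the next of the 8 ultrafine arrays was at 13.88 and 6 were at the top value. Atp2a2 stood at 14.04 on filtered air 7, where the other 6 filtered air arrays were all at the top value of 14.17. Where all other arrays of a group share the top value, a lone array below it is set off however small its gap. Casq2 stood at 6.86 on coarse 1, where the other 5 coarse arrays lay between 8.15 and 8.40. Coarse 1 and ultrafine 7 were also the arrays with the highest mean of thymocyte and lymphocyte genes, 9.81 on each, and filtered air 7 was not among the arrays set apart. Beyond the correlations and covariate fits given in this report, whether these genes bear on these levels was not tested.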

How the results depend on the processing

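No setting called any of the 4 calcium cycling genes: the count was 0 of those tested in every comparison under each alternative and with each array left out in turn, and the lowest adjusted p was 0.106, for Casq2 between fine and ultrafine particles in the 20 arrays without ultrafine 5. Over all probes the counts did depend on the setting. Between fine and ultrafine particles 23 probes were called, 5 in a fit of the compared groups alone, 815 with array weights and 7 to 168 with 1 array left out. Against filtered air, coarse particles gave 1 call, between 0 and 126 under the alternatives, fine particles 0, between 0 and 19, and ultrafine particles 8, between 0 and 86. Coarse against fine particles gave 3, between 1 and 55, and the test of any difference 11, between 11 and 97. The filter to brighter probes left out Jph2 and Slc8a1.

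Of the 24 differences of the members, 10 kept their sign under every setting, among them Jph2 with ultrafine particles, which ran from -0.26 to -0.17 under the alternatives and from -0.29 to -0.21 with 1 of the 27 arrays left out. Slc8a1 with fine particles turned only when 1 of the 20 arrays was left out, to 0.00155 without fine 5. The cause of the turned signs was not tested. With cyclic loess, coarse minus fine was 0.0536 for Atp2a2 and -0.000972 for Slc8a1, coarse minus ultrafine was 0.00648 for Casq2, and fine minus ultrafine was -0.0475 for Atp2a2. With array weights, Casq2 was 0.102 for coarse and 0.220 for ultrafine particles minus filtered air, 0.0488 for coarse minus fine and -0.166 for fine minus ultrafine. Atp2a2 was -0.131 for coarse minus ultrafine and -0.0460 for fine minus ultrafine, and against filtered air Slc8a1 with coarse particles was 0.0162 and Jph2 with fine particles 0.0516.

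In the 17 arrays, Casq2 was 0.140 for coarse and 0.0556 for ultrafine particles minus filtered air, 0.0659 for coarse minus fine and 0.0839 for coarse minus ultrafine. Atp2a2 was -0.0737 for coarse minus ultrafine and -0.0345 for fine minus ultrafine, and against filtered air Slc8a1 with coarse particles was 0.0230 and Jph2 with fine particles 0.0874. In the 20 arrays the same 8 differences were 0.0950, 0.0435, 0.0717, 0.0515, -0.0725, -0.0159, 0.0107 and 0.0483, and Casq2 was -0.0202 for fine minus ultrafine. Without ultrafine 5 as well as the 10 arrays, ultrafine minus filtered air was 0.0255 for Atp2a2 and 0.290 for Casq2, coarse minus ultrafine was -0.132 for Atp2a2, and fine minus ultrafine was -0.0929 for Atp2a2 and -0.216 for Casq2.

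With the sarcomere mean as a covariate, Casq2 was 0.116 for coarse and 0.180 for ultrafine particles minus filtered air, 0.0658 for coarse minus fine and -0.130 for fine minus ultrafine, and Atp2a2 was 0.00758 for coarse minus fine and -0.00645 for fine minus ultrafine. With the thymocyte mean, Casq2 was 0.127 and 0.0664 against filtered air with coarse and ultrafine particles, 0.0502 for coarse minus fine and 0.0603 for coarse minus ultrafine.

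With 1 of the 27 arrays left out, 10 differences could turn. Casq2 ran from -0.172 to 0.151 for coarse, -0.00658 to 0.118 for fine and -0.160 to 0.0632 for ultrafine particles minus filtered air, -0.238 to 0.0711 for coarse minus fine and -0.149 to 0.224 for coarse minus ultrafine. Atp2a2 ran from -0.0793 to 0.0710 for coarse minus ultrafine and -0.0202 to 0.112 for fine minus ultrafine. Jph2 with fine particles ran from -0.0794 to 0.0806, Slc8a1 with coarse particles from -0.0613 to 0.000779, and Slc8a1 for coarse minus fine from -0.0185 to 0.0343.

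The replicate numbers were shared by the groups. Of 37 same-numbered pairs, 23 deviated together (a correlation over 0.1), with a range from -0.72 to 0.87 and a median of 0.34. Of 235 pairs of other numbers 98 did, with a range from -0.83 to 0.92 and a median of 0.01. Same-numbered arrays were thus more alike at the median, and what they share was not tested. No label pairs the rats, so the main fit had no block, and its p-values take no account of this likeness. A fit with the replicate block also called 0 members, and it turned coarse minus ultrafine to -0.0275 for Atp2a2 and 0.0142 for Casq2.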
